A study of Mus musculus with 19 samples.

Results

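The nuclear respiratory chain subunit genes are the genes of the cell nucleus that encode the protein subunits of the 5 oxidative phosphorylation complexes of the mitochondrion. They were taken by symbol from the table of expressed genes: all names beginning with Ndufa, Ndufb, Ndufc, Ndufs, Ndufv, Sdh, Uqcr, Cox4 to Cox8 or Atp5, without assembly factors (Ndufaf, Sdhaf), Atp5s, Ndufa4l2 and names with -ps. This gave 79 of the 12942 genes: 37 of complex I, 4 of complex II, 8 of complex III, 15 of complex IV and 15 of complex V. The name rule also takes in Cox4nb, which RefSeq lists as Emc8, a protein of the endoplasmic reticulum membrane and no subunit. Ndufa4 is counted with complex I by name, although its protein is now assigned to complex IV.

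Complex I takes electrons from NADH and complex II takes them from succinate, both pass them through ubiquinone to complex III, and cytochrome c carries them to complex IV, which reduces oxygen. Complexes I, III and IV pump protons, and complex V, the ATP synthase, uses the proton gradient to make ATP. A small set of core subunits is encoded by mitochondrial DNA, all others by nuclear genes, and several complex IV and V subunits exist as paralogs used in different tissues. Pluripotent stem cells are known for strong glycolysis, and naive cells are known to respire more than primed ones.

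RNA of 3 mouse embryonic stem cell (ESC) lines, labelled as male and named J-34, J-35 or J-37, was measured in 19 libraries of 8 groups. Passage 4 cells went into S/L+PD until passage 7, into PKCi/L, a2i/L, 2i/L or S/L until passage 10, or into 2i/L or S/L until passage 20. Late 2i/L cells were also put back into S/L and harvested at passage 23, here called the return. S/L is serum with the cytokine LIF. By the study's publication 2i/L holds inhibitors of Mek and Gsk3, and a2i/L replaces the Mek inhibitor by a Src inhibitor. By the same source PKCi/L holds an inhibitor of protein kinase C, and PD is a Mek inhibitor. All groups shared feeder layers, a sort for the surface antigen SSEA1, ribosomal RNA removal (Ribo-Zero) and a directional library kit. The 5 groups of passages 7 and 10 have 2 libraries each and the 3 later groups 3 each, 1 from each line, so that p-values measure the spread between these few lines. For the second library of PKCi/L and of S/L+PD the title names J-37 and another label J-35. The title was used, and line and medium cannot be fully told apart there, nor medium and passage in S/L+PD.

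Values are CPM, read counts relative to library size, scaled between libraries by a trimmed mean of M values (TMM), here called scaled CPM. Later libraries stood apart: Lars2 read 14870 to 29548 CPM at passages 20 and 23 against 56.9 to 3797 CPM before, and their TMM factors were 0.666 to 1.09 against 0.965 to 1.17. The pluripotency genes Pou5f1 (225 to 554 CPM) and Sox2 (124 to 235 CPM) were high in every library. The summed CPM of 16 fibroblast markers, which the feeder cells carry, was 198 to 209 in S/L, 319 to 361 in 2i/L, 143 to 159 in a2i/L and 233 to 289 in PKCi/L at passage 10. It was 1840 to 2710 in S/L+PD, and later 244 to 279 in S/L, 653 to 805 in 2i/L and 222 to 291 after the return. At most 1 of the 16 markers was at 0 CPM in any library. The sum rests largely on Sparc and Vim, with means of 128 and 32 scaled CPM in S/L at passage 10. Col1a1 read 2.61 and Col3a1 0.53 there, against 16.9 and 27.5 in 2i/L. In a2i/L 1 marker was called higher and 4 lower: Sparc read 79.8 and Col1a1 0.85, while Pdgfrb rose from 2.53 to 13. In bulk RNA fewer cells of a type and less RNA per cell cannot be told apart.

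The subunit genes moved less across the groups than genes at large. The range between the highest and the lowest of the 8 group means had a median of 0.62 on the log2 scale over the 79 members, against 1.03 over all genes and 0.85 over the 6769 genes with a mean of at least 10 scaled CPM. It exceeded 1, a 2-fold difference, in 12 members (15.2%), against 52.2% of all genes and 37.5% of the better expressed ones. The widest were Cox7a1 with 2 log2 units, Cox4i2 with 1.58 and Cox6b2 with 1.25. The narrowest were Ndufs3, a subunit of complex I, with 0.25 and Atp5j, a stalk subunit of the ATP synthase, with 0.28. Most named differences below are therefore shifts of well under 2-fold, and several subunit genes of this kind have processed pseudogenes or paralogs between which the authors' counting could divide reads.

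**Figure D1:**
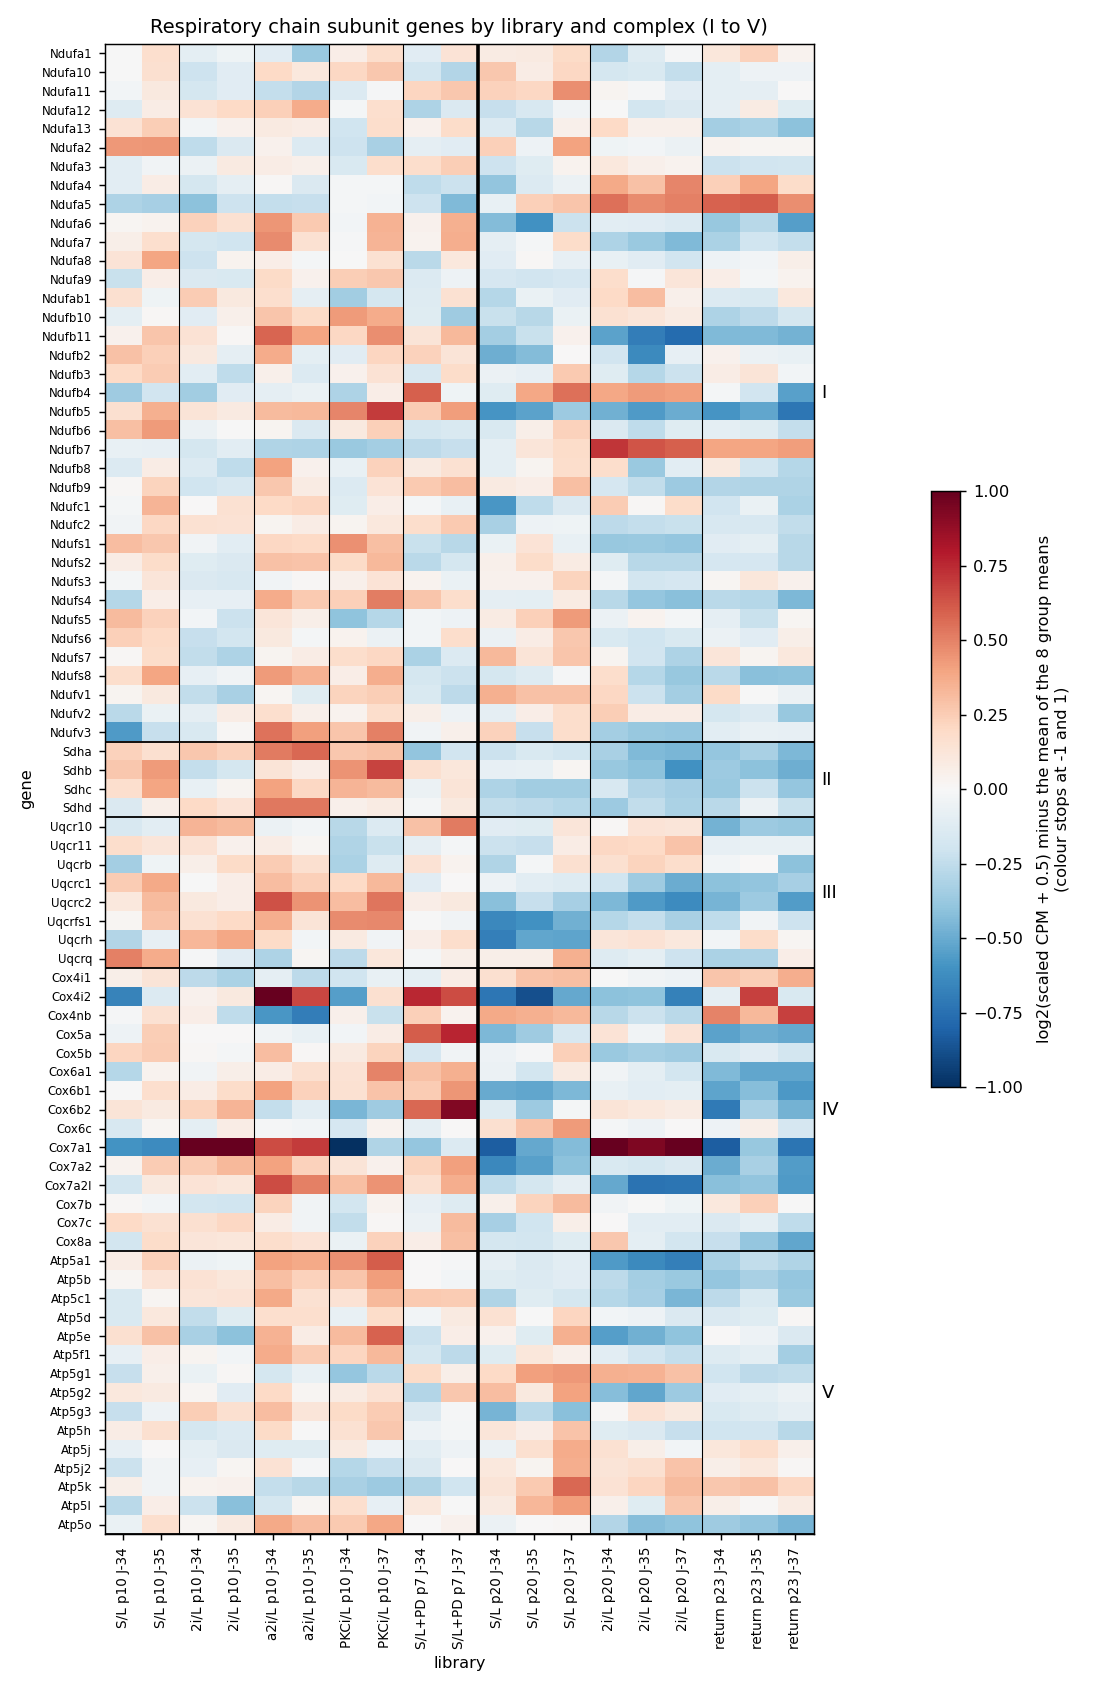
Log2(scaled CPM + 0.5) of each of the 79 subunit genes in each of the 19 libraries, minus the mean of the 8 group means of that gene. Horizontal lines part the complexes, vertical lines part the groups, and the thick line parts passages 7 and 10 from passages 20 and 23. Most of the map is pale, and Cox7a1 is dark red in the 2i/L columns at both passages.

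Promoters are shown for 4 of the members with the largest called changes. Each line is the 250 bases before the RefSeq transcription start in build GRCm38.p6, read 5′ to 3′ on the strand of the gene, and capitals mark the motifs found. Cox7a1 lies at chr7:30183921-30184170 (plus strand), Ndufv3 at chr17:31519865-31520114 (plus strand), Ndufa4 at chr6:11907451-11907700 (minus strand) and Uqcrh at chr4:116075071-116075320 (minus strand).
Cox7a1: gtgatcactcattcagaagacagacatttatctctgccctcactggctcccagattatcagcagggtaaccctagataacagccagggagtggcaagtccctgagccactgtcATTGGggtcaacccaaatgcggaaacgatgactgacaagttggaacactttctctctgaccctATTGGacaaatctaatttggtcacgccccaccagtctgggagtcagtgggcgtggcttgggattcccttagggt
Ndufv3: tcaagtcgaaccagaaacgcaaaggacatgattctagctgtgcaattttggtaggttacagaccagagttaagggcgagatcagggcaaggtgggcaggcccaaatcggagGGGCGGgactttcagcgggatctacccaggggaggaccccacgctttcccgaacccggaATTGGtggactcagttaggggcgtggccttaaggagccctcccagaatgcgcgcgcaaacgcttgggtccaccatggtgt
Ndufa4: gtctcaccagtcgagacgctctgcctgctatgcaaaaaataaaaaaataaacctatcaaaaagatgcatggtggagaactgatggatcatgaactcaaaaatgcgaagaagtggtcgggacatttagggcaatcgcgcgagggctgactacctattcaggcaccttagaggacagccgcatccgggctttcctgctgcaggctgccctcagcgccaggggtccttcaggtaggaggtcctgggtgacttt
Uqcrh: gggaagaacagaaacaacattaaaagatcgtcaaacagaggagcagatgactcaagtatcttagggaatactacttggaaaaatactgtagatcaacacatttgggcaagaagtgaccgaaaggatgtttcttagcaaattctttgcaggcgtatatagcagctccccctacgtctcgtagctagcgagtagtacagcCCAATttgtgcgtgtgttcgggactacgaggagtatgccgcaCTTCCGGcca
The capitals mark CCAAT boxes on the reverse strand (ATTGG) in Cox7a1 and Ndufv3 and on the forward strand in Uqcrh, an SP1 box (GGGCGG) in Ndufv3, and an ETS motif (CCGGAAG) on the reverse strand in Uqcrh. No searched motif was found in the Ndufa4 window.

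The same motifs were counted, on both strands, in the windows of all members that RefSeq matched by name, 66 of 79 with 71 windows. The NRF1 consensus motif, named for a factor known to act on respiratory genes, stood in 7.04% of member windows and 1.42% of all 21263 windows. Its 5 member windows belonged to Sdhd, Atp5g2, Ndufb4, Atp5c1 and Ndufa11. An exact form of its core, searched first and partly overlapping with it, stood in 5.63% against 1.07%. The ETS motif stood in 16.9% against 8.98%, the SP1 box in 33.8% against 42.6%, and CCAAT in 40.8% against 35.4%. YY1 letters (AAGATGGC) stood in 1.41% against 1.5% and TCF letters (CTTTGAT) in 1.41% against 2.82%. These matches describe letters and not bound sites.

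Complex I passes electrons from NADH through a flavin and iron-sulphur clusters, and many small accessory subunits surround that core. Ndufa2, an accessory subunit of the NADH-oxidising arm, read 34.2 and 34.3 scaled CPM in S/L at passage 10, 21 and 22.6 in 2i/L, 25.9 and 22.8 in a2i/L, 21.7 and 20 in PKCi/L and 23.5 and 23.1 in S/L+PD. Both S/L libraries lay above all 8 others of these passages. The gene fell in all 4 media, by 0.64, 0.49, 0.70 and 0.54 on the log2 scale, with adjusted p = 7.59e-05, 0.0019, 5.53e-05 and 0.000495 (limma, Benjamini-Hochberg over all genes). The 4 comparisons share the same S/L libraries, so they are not 4 separate results.

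Ndufv3, a small subunit beside the flavin-bearing protein, went the other way. It read 25.5 and 32.3 scaled CPM in S/L at passage 10, 34.1 and 38.4 in 2i/L, 55.7 and 50.6 in a2i/L, 46.1 and 54 in PKCi/L and 37.2 and 39.3 in S/L+PD. The a2i/L and PKCi/L libraries were the highest 4 and did not overlap with the S/L libraries. The log2 fold change was 0.87 ± 0.13 (SE) in a2i/L (adjusted p = 2.22e-05) and 0.79 ± 0.13 in PKCi/L (adjusted p = 7.88e-05). At passage 20 the order turned: S/L read 44.7, 32.4 and 43.1 and 2i/L 29.9, 29.1 and 29, a log2 fold change of -0.43 (adjusted p = 0.00136) that the test without scaling did not call (-0.06).

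Ndufa4 and Ndufb7, a small accessory subunit on the intermembrane side, were higher in 2i/L at passage 20 and did not pass the test at passage 10. Ndufa4 read 45, 54.1 and 57.1 scaled CPM in S/L at passage 20, 77.5, 73 and 83.8 in 2i/L and 70.1, 78.5 and 67.7 after the return to S/L. Ndufb7 read 26.9, 31.4 and 32.8 in S/L, 47.6, 44.9 and 43.8 in 2i/L, then 38.1, 38.1 and 38.7 after the return. For both genes no S/L library reached the level of any 2i/L or returned library. Ndufa4 rose by 0.58 on the log2 scale in 2i/L (adjusted p = 7.16e-06) and stood 0.47 above S/L after the return (adjusted p = 0.000219). Ndufb7 rose by 0.58 in 2i/L (adjusted p = 8.76e-07) and stood 0.34 above S/L after the return (adjusted p = 0.000993), while it fell by 0.24 from 2i/L to the return.

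Ndufa5, a further accessory subunit, followed with 10.3, 12.9 and 13.3 scaled CPM in S/L at passage 20, 16.1, 15.3 and 15.6 in 2i/L and 16.7, 16.9 and 15.2 after the return. Its log2 fold changes against S/L were 0.36 (adjusted p = 0.00385) and 0.41 (adjusted p = 0.00266). Ndufs1, the largest iron-sulphur subunit, read 81.5 and 79.2 in S/L at passage 10, 64 and 60.7 in 2i/L and 75.6 and 75.5 in a2i/L. It read 90 and 80.8 in PKCi/L and 56.2 and 54.1 in S/L+PD. In 2i/L it fell by 0.36 (adjusted p = 0.00186), a call lost without scaling. In S/L+PD it fell by 0.54 (adjusted p = 4.68e-05), with no overlap with S/L. Fibroblast markers summed to 1840 to 2710 CPM in S/L+PD, and their part in the result was not tested.

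Complex II holds a flavoprotein (Sdha), an iron-sulphur protein (Sdhb) and a pair of membrane anchors (Sdhc and Sdhd), and its members did not move as 1 unit. Sdha, which oxidises succinate, read 134 and 127 scaled CPM in S/L at passage 10, 137 and 133 in 2i/L, 163 and 169 in a2i/L, 138 and 140 in PKCi/L and 86.6 and 99.6 in S/L+PD. The a2i/L libraries were above and the S/L+PD libraries below all others of these passages. Sdha fell by 0.49 in S/L+PD (adjusted p = 6.43e-05), and its rise of 0.35 in a2i/L (adjusted p = 0.00223) was not called without scaling, where the log2 fold change was 0.26 (adjusted p = 0.184).

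Sdhb behaved differently in 2i/L. It read 69 and 77 in S/L at passage 10 and 48.3 and 50.4 in 2i/L, without overlap, a fall by 0.56 (adjusted p = 5.51e-05) that held in all alternatives run. At passage 20 it read 53.9, 54.2 and 57.9 in S/L and 43.9, 42.8 and 37.4 in 2i/L, a fall by 0.42 (adjusted p = 8.5e-05) that shrank to -0.05 without scaling (adjusted p = 0.74).

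Complex III moves electrons from ubiquinol to cytochrome c. Uqcrh, the hinge protein beside cytochrome c1, read 36.3 and 42.1 scaled CPM in S/L at passage 10 and 56.2 and 58.4 in 2i/L. At passage 20 it read 27.5, 31 and 30.7 in S/L and 48.4, 49.3 and 47.9 in 2i/L. The returned libraries read 43.6, 50.7 and 45.1. The groups in 2i/L lay above their S/L groups at both passages, and the returned libraries overlapped with 2i/L. The rise was 0.54 ± 0.10 at passage 10 (adjusted p = 0.000136) and 0.70 ± 0.08 at passage 20 (adjusted p = 3.08e-07), and the return stood 0.64 above S/L (adjusted p = 4.08e-06). Return and 2i/L differed by -0.06, which did not pass the test.

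Uqcr10, a small membrane subunit, read 55.4 and 57.7 in S/L at passage 10 and 78.8 and 77.4 in 2i/L, a rise of 0.46 (adjusted p = 0.000448). In S/L+PD it read 76 and 89.3. In a2i/L it read 59.5 and 60.7, lower than in 2i/L by 0.38 on the log2 scale (adjusted p = 0.00337). Fibroblast markers were also higher in 2i/L and S/L+PD than in S/L, and their part in the Uqcr10 values was not tested. Uqcrfs1, the Rieske iron-sulphur protein, read 30.7, 31.6 and 34.6 in S/L at passage 20, 39.5, 40.8 and 38.5 in 2i/L and 40.4, 47.1 and 41.9 after the return. Both groups lay above S/L without overlap, by 0.29 (adjusted p = 0.00418) and 0.41 (adjusted p = 0.000452). The core protein Uqcrc1 fell by 0.37 in S/L+PD (adjusted p = 0.00242).

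In complex IV the largest change of any member was that of Cox7a1, the isoform of subunit VIIa found in heart and skeletal muscle. It read 4.61 and 4.51 scaled CPM in S/L at passage 10, 17.6 and 17.2 in 2i/L, 11.7 and 12.1 in a2i/L, 2.67 and 5.81 in PKCi/L and 5.42 and 6.54 in S/L+PD. At passage 20 it read 3.87, 4.93 and 5.23 in S/L and 15.4, 14.3 and 16.2 in 2i/L. The returned libraries read 3.88, 5.47 and 4.18. All libraries in 2i/L and a2i/L lay above all others, and the returned libraries overlapped with S/L.

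Cox7a1 was 3.54-fold higher in 2i/L at passage 10 (log2 1.83 ± 0.22, adjusted p = 6.57e-07) and 3.07-fold higher at passage 20 (log2 1.62 ± 0.18, adjusted p = 1.21e-07). It rose by 1.29 in a2i/L (adjusted p = 0.000101) and fell by 1.67 from 2i/L to the return (adjusted p = 1.1e-07). The 2i/L effects at the 2 passages differed by -0.21 (adjusted p = 0.587). The a2i/L level lay 0.53 below 2i/L with adjusted p = 0.0521, and with the line as a block it passed (adjusted p = 0.0281). Fibroblast markers were also higher in 2i/L than in S/L, at 319 to 361 against 198 to 209 CPM at passage 10 (11 of 16 markers called higher) and 653 to 805 against 244 to 279 CPM at passage 20 (12 of 16). They summed to 143 to 159 CPM in a2i/L and to 1840 to 2710 CPM in S/L+PD, where Cox7a1 did not pass the test. Their part in the Cox7a1 result was not tested.

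The other VIIa genes moved less. Cox7a2, the widely expressed isoform, rose by 0.38 in 2i/L at passage 20 (adjusted p = 0.000477), from 41, 44 and 48.3 to 57.9, 57.1 and 58.3 scaled CPM. Cox7a2l, whose protein helps join complexes III and IV, read 55.4 and 67.6 in S/L at passage 10 and 99.5 and 89.9 in a2i/L, with no overlap, a rise of 0.62 (adjusted p = 0.000142). In 2i/L at passage 20 it fell by 0.48 (adjusted p = 7.57e-05), a call lost without scaling, where the log2 fold change was -0.12 (adjusted p = 0.435).

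**Figure D2:**
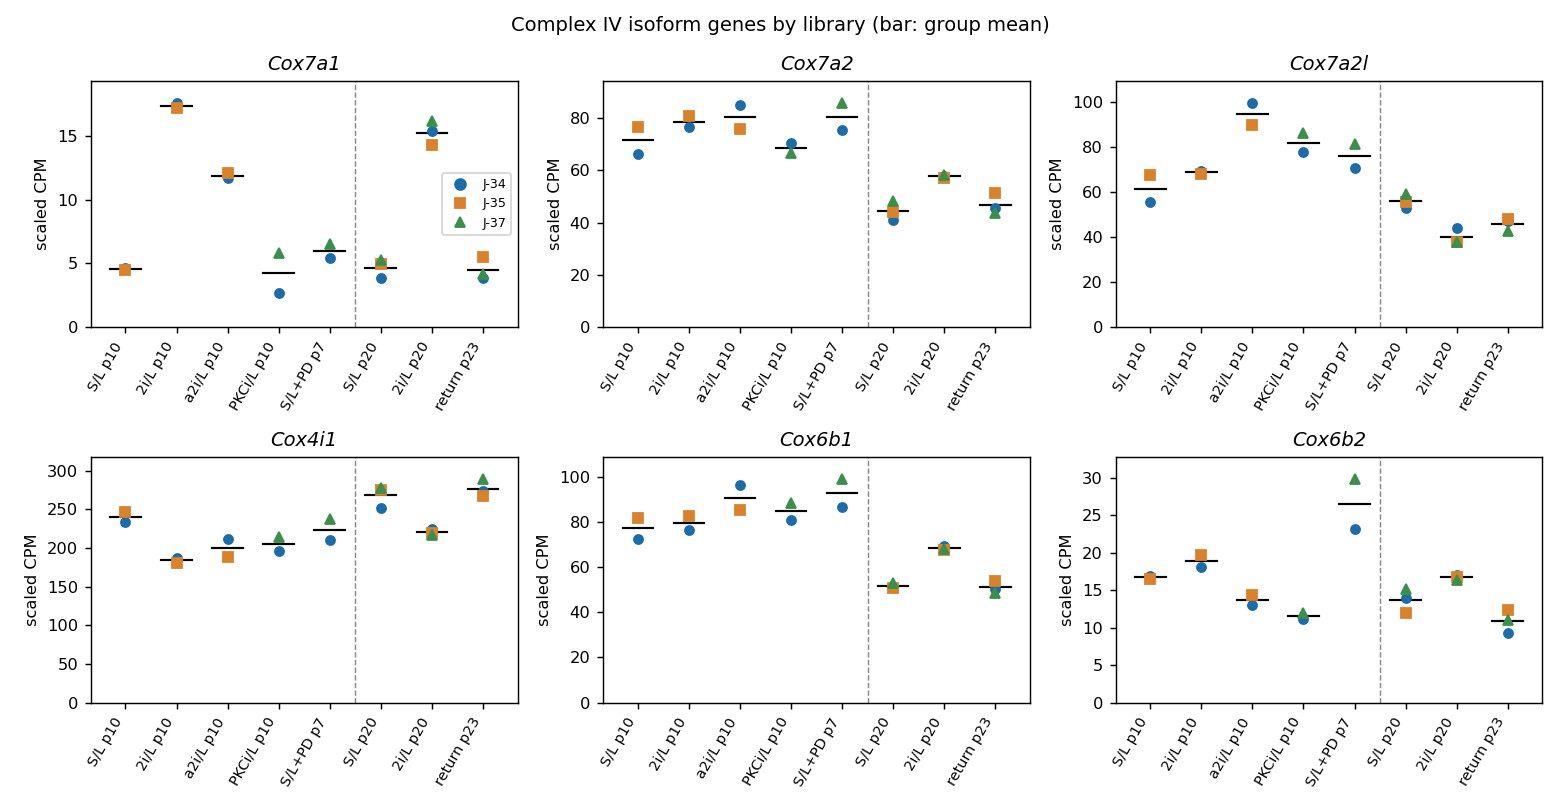
Scaled CPM of 6 complex IV isoform genes by library, with a bar at each group mean, marker shape and colour for the ESC line, and a dashed line between passages 7 and 10 and passages 20 and 23. Cox7a1 sits between 11.7 and 17.6 in the 2i/L and a2i/L libraries and at most at 6.54 in all others.

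Cox4i1, the common form of subunit IV, read 234 and 247 scaled CPM in S/L at passage 10 and 187 and 181 in 2i/L, a fall by 0.38 (adjusted p = 0.00125). Cox4i2, the form known from lung, was low in every library, at 0.15 to 2.02 scaled CPM, and its log2 fold changes depend on the pseudocount of 0.5. It read 0.254 and 0.588 in S/L at passage 10 and 2.02 and 1.4 in a2i/L, which was called higher (log2 1.27, adjusted p = 0.00114).

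Cox6b2, the form of subunit VIb known from testis, and Cox5a, a matrix-side subunit, were highest in S/L+PD. Cox6b2 read 16.9 and 16.5 in S/L at passage 10 and 23.2 and 29.8 in S/L+PD, a rise of 0.64 (adjusted p = 0.000596), while it fell by 0.51 in PKCi/L (adjusted p = 0.00525), where it read 11.1 and 12. Cox5a read 46.8 and 57.7 in S/L and 74.2 and 82.6 in S/L+PD, a rise of 0.59 (adjusted p = 0.000128). Neither gene's S/L and S/L+PD libraries overlapped. The part of the feeder RNA in these S/L+PD values was not tested.

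At passage 20 Cox6b1, the common form of subunit VIb, read 51.2, 50.6 and 53 in S/L, 69.1, 67.6 and 68 in 2i/L, then 50.3, 53.9 and 48.6 after the return. The 2i/L libraries lay above all others of the late groups, by 0.40 over S/L (adjusted p = 9.5e-05), and the return fell by 0.42 from 2i/L (adjusted p = 7.57e-05). Cox5a showed the same order, with 35.3, 37.9 and 43.4 in S/L, 53.4, 47.4 and 53.4 in 2i/L, then 33.3, 34.4 and 33.9 after the return, with a rise of 0.40 in 2i/L (adjusted p = 0.000381). Fibroblast markers were also higher in 2i/L (653 to 805 CPM) than in S/L and the return, and their part in these differences was not tested.

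In complex V, 3 genes encode the same mature subunit c of the proton-driven ring, and they parted in the late groups. Atp5g1 read 47.5, 55.2 and 55.9 scaled CPM in S/L at passage 20, 53.1, 52.8 and 50.8 in 2i/L and 35.9, 34.3 and 34.8 after the return. Atp5g2 read 16.5, 14.2 and 17.7 in S/L, 9.74, 9.1 and 10.2 in 2i/L, then 12.2, 12.3 and 12.7 after the return. Atp5g3 read 56, 63.9 and 57.8 in S/L, 78, 85.2 and 82.8 in 2i/L, then 69.4, 70.6 and 72.4 after the return.

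Among these late groups Atp5g1 was lowest in the returned libraries, Atp5g2 was lowest and Atp5g3 highest in 2i/L, and for each gene the named group did not overlap with the others. At passage 10 Atp5g1 also read 31.6 and 34.3 in PKCi/L and 35.2 in S/L J-34. Atp5g1 fell by 0.58 against S/L (adjusted p = 9.66e-06) and by 0.57 against 2i/L (adjusted p = 5.65e-06) after the return. Atp5g2 fell by 0.70 in 2i/L (adjusted p = 2.19e-05) and Atp5g3 rose by 0.47 (adjusted p = 1.59e-05). None of these 4 calls was lost without scaling or without any 1 library.

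Among the catalytic and stalk subunits, Atp5e, the epsilon subunit, read 43.5 and 47.6 in S/L at passage 10, 31 and 29.1 in 2i/L and 49.6 and 41 in a2i/L. It fell by 0.59 in 2i/L (adjusted p = 0.00104) and stood 0.58 higher in a2i/L than in 2i/L (adjusted p = 0.00162). Atp5a1, the alpha subunit, read 706, 679 and 697 in S/L at passage 20 and 507, 484 and 469 in 2i/L, without overlap. Its fall by 0.51 (adjusted p = 6.7e-06) was not called without scaling (log2 -0.14, adjusted p = 0.377).

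**Figure D3:**
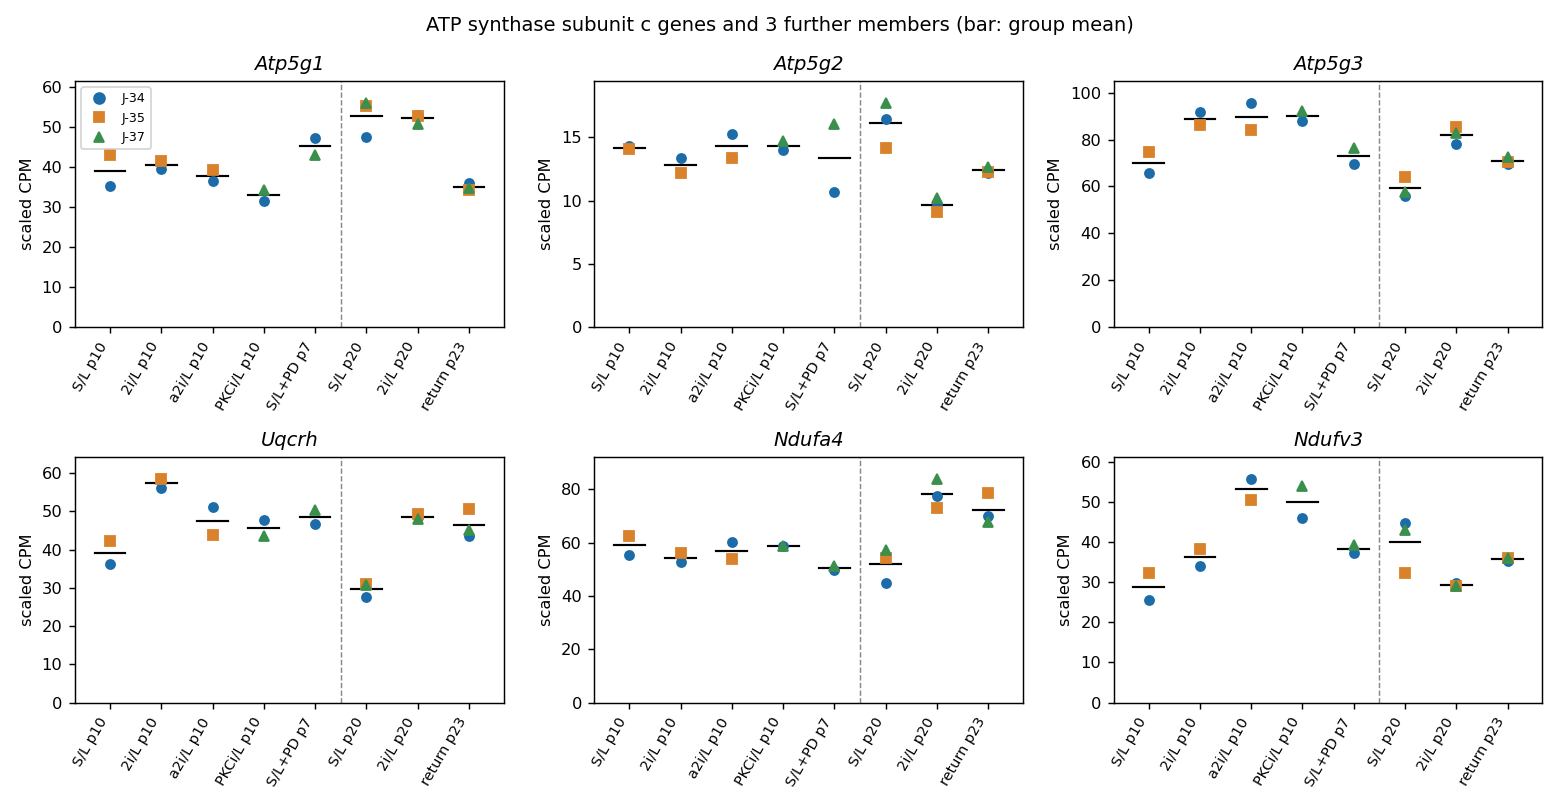
Scaled CPM by library of the 3 subunit c genes and of Uqcrh, Ndufa4 and Ndufv3, with a bar at each group mean and marker shape and colour for the ESC line. After the return Atp5g1 sits at 34.3 to 35.9, below the 47.5 to 55.9 of S/L at passage 20, while Uqcrh and Ndufa4 sit near their 2i/L levels.

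By medium, 2i/L at passage 10, which holds the paired Mek and Gsk3 inhibitors, was set against S/L. The media are compared as wholes, and the part of the inhibitors alone was not tested. Of 79 members 5 were higher, 6.33% against 26.0% of all genes, and 19 lower, 24.1% against 23.4% of all genes. The lower share was thus near that of all genes and the higher share below it. Of all genes, 22.7% were higher and 17.5% lower without scaling. Complex I held 12 of the lower members and 1 of the higher, which became 2 and 0 without scaling, and the median log2 fold change was -0.17 over its 37 genes, against 0.01 over all genes. Without scaling 4 members were higher and 6 lower, and with single libraries left out the lower count was 7 without S/L J-35, 11 without 2i/L J-34 and 12 without 2i/L J-35. Without S/L J-34, 3 were higher.

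In a2i/L 17 members were higher (21.5%, against 18.7% of all genes) and 8 lower (10.1%, against 18.2%). Complex V had 4 higher of 15 and 0 lower, and 0 and 0 without scaling. Without scaling 5 were higher and 4 lower, against 10.7% and 17.3% of all genes. The higher count was 6 without S/L J-34 and 7 without a2i/L J-34, and the lower count 3 without S/L J-35 or without a2i/L J-35.

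Set directly against 2i/L, a2i/L had 28 members higher (35.4%, against 21.2% of all genes) and 5 lower (6.33%, against 22.9%). All 13 called genes of complex I and all 4 genes of complex II were among the higher. Sdhc and Sdhd, named after their values were seen, stood 0.33 and 0.36 above 2i/L. The calls rest on the scaling: without it 2 members were higher and 6 lower, against 11.8% and 23.9% of all genes. The member median moved from 0.14 to 0.03 and that of all genes from -0.01 to -0.12. The member median thus lay above the all-gene median either way. Without a2i/L J-34, 2i/L J-34 or 2i/L J-35, 9, 14 and 17 members were higher, and the lower count was 3, 3 and 2, with 3 also without a2i/L J-35.

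In PKCi/L 14 members were higher (17.7%, against 18.0% of all genes) and 8 lower (10.1%, against 18.6%). Complex V held 6 of the higher, with a median of 0.15 over its 15 genes. Without scaling, 1 member was higher and 12 lower, against 5.8% and 23.5% of all genes. Complex V then had 0 higher and 2 lower, and the member median was -0.13, against -0.17 over all genes. Without S/L J-34, 2 were higher and 5 lower, without PKCi/L J-37 6 were higher, and without PKCi/L J-34 5 were lower.

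S/L+PD, with a Mek inhibitor alone, had 13 members higher (16.5%, against 23.4% of all genes) and 13 lower (16.5%, against 21.3%). Complex IV had 6 higher and 1 lower of 15, and 3 and 1 without scaling. Complex I had 4 higher and 8 lower of 37, a lower share near that of all genes, and 0 and 8 without scaling. Of the 16 fibroblast markers 15 were higher too, and their part in the result was not tested. Without scaling 4 members were higher and 12 lower, against 16.4% and 19.3% of all genes. Without S/L J-34, 3 were higher, without S/L+PD J-37 8 were higher, and without S/L J-35 6 were lower.

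**Figure D4:**
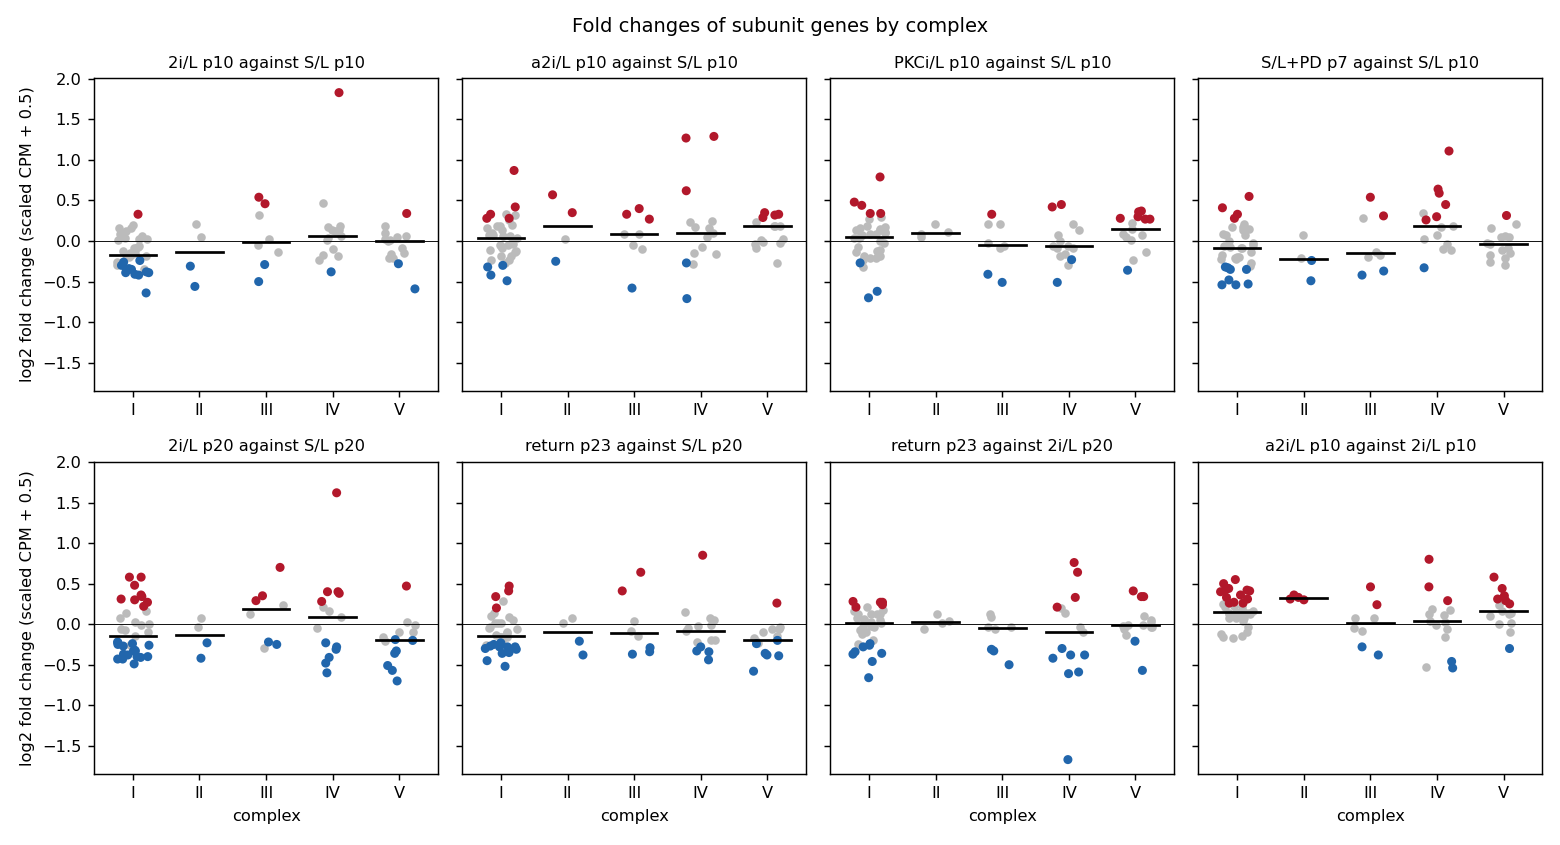
Log2 fold change of each subunit gene in 8 comparisons, by complex, with a bar at the median of the complex. Red points were called higher, blue points lower, and grey points did not pass an adjusted p of 0.05. Cox7a1 is the point at 1.83 in 2i/L at passage 10 and at 1.62 at passage 20.

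At passage 20, 2i/L against S/L had 18 members higher (22.8%, against 32.3% of all genes) and 34 lower (43.0%, against 32.1%). Complex I had 9 higher and 17 lower of 37, complex V 1 higher and 7 lower of 15, and complex III 3 higher and 2 lower of 8. The member median was -0.14. Without scaling, 32 members were higher and 1 lower, against 50% and 12.3% of all genes. The member median moved from -0.14 to 0.23 and that of all genes from -0.01 to 0.33. The sign of the member median thus depends on the scaling, while it lay below the all-gene median either way.

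After the return to S/L, 8 members stood higher than in S/L at passage 20 (10.1%, against 21.5% of all genes) and 27 lower (34.2%, against 22.8%). Complex I gave 4 higher and 12 lower and complex V 1 higher and 6 lower. Without scaling, 15 were higher and 1 lower, against 32.7% and 6.63% of all genes. The median was then 0.09 over members and 0.20 over all genes. The lower count was 14 without S/L J-37 and 17 without the returned J-37.

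Against 2i/L at passage 20 the returned cells had 12 members higher (15.2%, against 27.3% of all genes) and 20 lower (25.3%, against 27.7%). Complex IV gave 4 higher and 7 lower of 15, and the higher ones include Cox4nb, which is no subunit, and the low gene Cox4i2. Without scaling 2 were higher and 21 lower, against 15.8% and 30.3% of all genes. The higher count was 6 without 2i/L J-35 or without the returned J-35, and 7 without 2i/L J-37.

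The effect of 2i/L at passage 20 minus that at passage 10 passed the test for 10 members upward (12.7%, against 19.1% of all genes) and 9 downward (11.4%, against 20.5%). Without scaling, 21 were upward and 0 downward, against 29.9% and 7.1% of all genes. The median was then 0.32 over members and 0.29 over all genes. The upward count was 3 without S/L J-35 of passage 10 and 4 without 2i/L J-34 of passage 10. The downward count was 3 without S/L J-34 of passage 10, and 4 without 2i/L J-34 or J-35 of passage 10 or without S/L J-37 of passage 20.

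**Figure D5:**
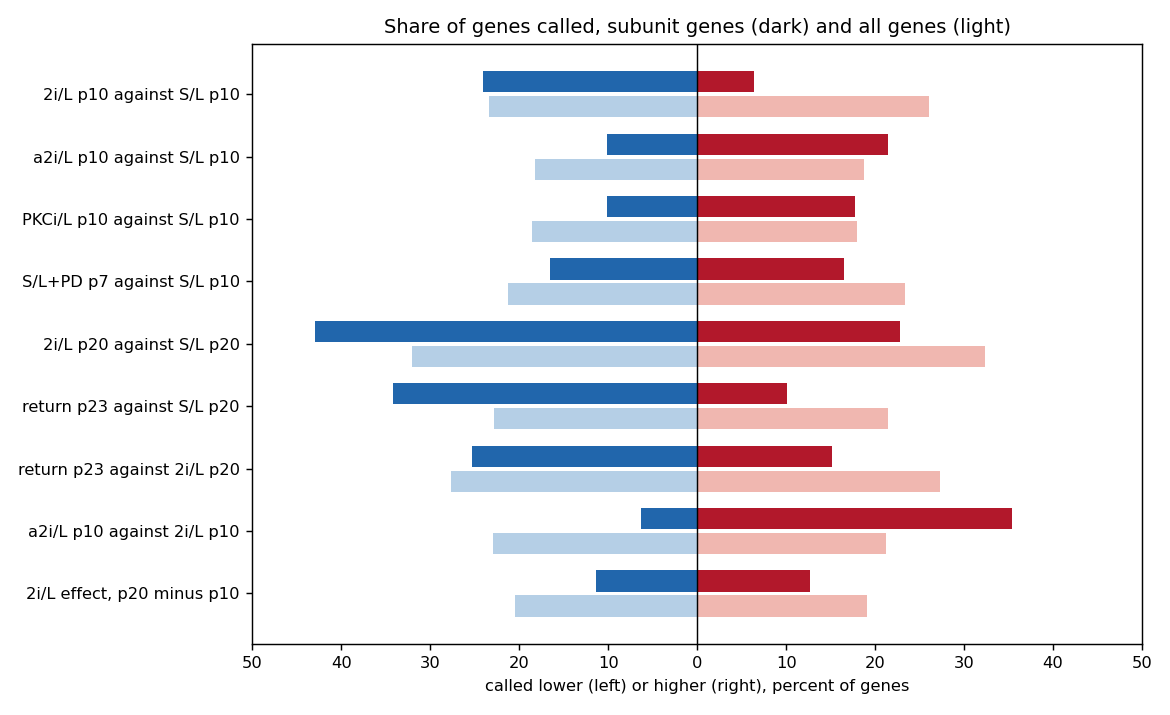
Percent of genes called lower (left, blue) or higher (right, red) in each of the 9 comparisons, for the 79 subunit genes (dark bars) and all 12942 genes (light bars). The dark bar exceeds the light one by most on the right in a2i/L against 2i/L (35.4 against 21.2) and is far shorter on the right in 2i/L against S/L at passage 10 (6.33 against 26.0).

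Genes around the chain were read from lists chosen beside the members. Of 17 genes of the TCA cycle and pyruvate entry, 3 were higher and 5 lower in 2i/L at passage 10, 3 and 2 in a2i/L, 2 and 2 in PKCi/L, 1 and 10 in S/L+PD, and 9 and 5 in 2i/L at passage 20. Without scaling these splits were 1 and 1, 0 and 2, 0 and 3, 0 and 6, and 11 and 0. Of all genes, 26.0% were higher and 23.4% lower in 2i/L at passage 10, then 18.7% and 18.2% in a2i/L and 18.0% and 18.6% in PKCi/L. These shares were 23.4% and 21.3% in S/L+PD, and 32.3% and 32.1% in 2i/L at passage 20. Those without scaling are given with each medium above. Pdha1, the alpha subunit of pyruvate dehydrogenase, fell by 0.97 in 2i/L at passage 10 (adjusted p = 6e-09), 0.58 in a2i/L, 0.49 in PKCi/L and 0.67 in S/L+PD. Its mean was 144 scaled CPM in S/L at passage 10 and 73.3 in 2i/L. The oxoglutarate dehydrogenase gene Ogdh fell by 0.59 in S/L+PD (adjusted p = 1.19e-05). In 2i/L it fell by 0.23 at passage 10 (adjusted p = 0.0318) and rose by 0.36 at passage 20 (adjusted p = 0.000149).

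Of 75 mitochondrial ribosomal protein genes, which serve the translation of the mitochondrially encoded subunits, 4 were higher and 29 lower in 2i/L at passage 10 and 11 and 37 at passage 20. From 2i/L to the return 26 were higher and 2 lower. Without scaling these splits were 1 and 13, 21 and 7, and 7 and 3. Of all genes, 26.0% were higher and 23.4% lower in 2i/L at passage 10, and 32.3% and 32.1% at passage 20. From 2i/L to the return these shares were 27.3% and 27.7%. Those without scaling are given with each comparison above. Of 27 measured assembly factors, 2 were higher and 8 lower in 2i/L at passage 10, and 4 and 11 at passage 20, with 6 and 4 there without scaling. Cox10, which makes the heme of complex IV, fell by 0.62 (adjusted p = 0.000251) and 0.96 (adjusted p = 5.3e-08), and the complex I factor Ndufaf4 fell by 0.96 at passage 20 (adjusted p = 1.72e-06).

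Of 11 regulators of mitochondrial gene transcription, 3 were higher and 1 lower in 2i/L at passage 10, 6 and 0 in PKCi/L and 2 and 5 in 2i/L at passage 20. Without scaling these splits were 1 and 1, 1 and 0, and 3 and 0, and the shares of all genes called are those given with each medium above. Tfam, the factor that packs and transcribes mitochondrial DNA, read 47.5, 52.2 and 48.6 scaled CPM in S/L at passage 20, 30.7, 33.8 and 32.8 in 2i/L and 42.2, 44.1 and 41.8 after the return. In scaled CPM the 2i/L libraries were the lowest, without overlap, a fall by 0.60 against S/L (adjusted p = 4.44e-07). Without scaling no regulator was called lower in this comparison, so the Tfam call was lost there. Ppargc1b, a coactivator of respiratory genes, read 1.16 and 1.53 in S/L at passage 10, 3.05 and 2.35 in PKCi/L and 0.724 and 0.659 in S/L+PD, a rise of 0.79 (adjusted p = 0.00154) and a fall by 0.63 (adjusted p = 0.00673). Of 8 subunits and carriers outside the name rule, 1 was higher and 2 lower in 2i/L at passage 10 and 2 and 3 at passage 20, where the split turned to 5 and 0 without scaling. Of 7 measured pluripotent cell markers, 2 were higher and 3 lower in 2i/L at passage 10 and 2 and 4 at passage 20, where the split turned to 3 and 1 without scaling. Of the 13 mitochondrially encoded subunits none is among the genes analysed here.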

How the data were processed

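RNA-seq was measured in 19 libraries of mouse ESC lines. The submitters' processing notes list edgeR 3.8.6, HTSeq 0.6.0, SAMtools 0.1.18.0, Picard 1.100 and STAR 2.3.0, and name mm9 and NCBIM37 as builds. Gene values were deposited as linear CPM, which the authors rounded to 2 decimals. Every listed gene reaches at least 1.01 CPM in 3 libraries, and the listed genes sum to 292986 to 465897 CPM per library, so the authors' totals also hold other reads. The strand setting of the counting is not given in the sources used here. Steps between low values gave a depth for 12 of 19 libraries, 33.9 to 45.5 M reads at passages 7 and 10 and 49.7 to 57.2 M for 2 later ones, and it is unknown for the others.

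CPM were divided by TMM factors (own unweighted version, trims of 30% and 5%) because totals hold reads outside the listed genes. An earlier analysis of these data used unscaled CPM, so splits without scaling are given beside the results. The filter of at least 1 CPM in 2 libraries kept all 12942 genes. Log2(scaled CPM + 0.5) was fitted with limma 3.58.1 in R 4.3.3 (lmFit, eBayes with trend) over all 19 libraries and 8 groups (11 residual degrees of freedom). Within each of 9 comparisons, Benjamini-Hochberg adjustment ran over all genes, and genes with an adjusted p below 0.05 are called. Fold changes are on the log2(scaled CPM + 0.5) scale and understate changes of low genes. The scripts were tested on simulated data.

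The members and lists were chosen with earlier results of these data known. Named members are the 3 largest called rises and falls per comparison, a panel of isoforms and core subunits, and called members moving against their complex; further members named were chosen after their values were seen. Replicate numbers are ESC lines, so they pair libraries across groups: residuals of the same line in the groups of 3 had a median r of 0.0991 (-0.0964 to 0.272, 9 pairs), against -0.0604 for different lines. Libraries of a group correlated with r of 0.989 to 0.995 and no pair was identical. Alternatives were no scaling, median-ratio scaling, pseudocounts of 0.1 and 1, no filter, a mean of at least 5 CPM, the line as block, only the groups compared, and each library left out. Promoter windows came from RefSeq (GRCm38.p6) by symbol, and no coordinates of the files' build were used.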

Additional observations from a re-analysis of the deposited data

Results flagged for a closer look

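For 19 members the effect of 2i/L against S/L at passage 20 differed from that at passage 10 by the test of the difference itself (limma, adjusted over all genes). The 10 upward ones are 12.7% of members, against 19.1% of all genes, and the 9 downward ones 11.4%, against 20.5%. Of all genes, 29.9% were called upward and 7.1% downward without scaling. Without scaling 21 members were called upward and 0 downward, so none of the downward differences below was called there, and without S/L J-35 of passage 10 the upward count was 3. This compares the 2 early lines with all 3 late ones, and early and late libraries also differed in their Lars2 level and scaling factors, whose part was not tested. Upward differences (passage 20 minus passage 10, log2) were 0.70 for Ndufa4, 0.64 for Ndufb7, 0.56 for Ndufc1, 0.50 for Cox5a, 0.41 for Ndufa13, 0.40 for Ndufa2, 0.40 for Uqcr11, 0.38 for Sdhc, 0.36 for Cox6b1 and 0.34 for Ndufa9. Downward differences were -0.28 for Sdha, -0.33 for Uqcr10, -0.35 for Atp5c1, -0.37 for Atp5o, -0.37 for Cox6c, -0.44 for Cox4nb, -0.56 for Atp5g2, -0.65 for Cox7a2l and -0.76 for Ndufv3. A difference need not be a change of sign. The effect was -0.64 at passage 10 and -0.24 at passage 20 for Ndufa2, a smaller fall. It was 0.46 and 0.13 for Uqcr10, a smaller rise. Ndufa4 went from -0.12 at passage 10 to 0.58 at passage 20 (adjusted p of the difference = 0.000501), and Ndufb7 from -0.06 to 0.58 (adjusted p = 0.000236). Both were called under all alternatives run and without any 1 library. Ndufv3 went from 0.33 to -0.43 (adjusted p = 0.00126) and Cox7a2l from 0.17 to -0.48 (adjusted p = 0.00105), and neither difference was called without scaling.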

How the results depend on the processing

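Over 149 named values, no direction turned except without scaling, where 8 did. In 2i/L at passage 20 Cox4i1 then read 0.09, Sdha 0.14, Uqcrc1 0.12, Atp5b 0.18 and Uqcrc2 0.15, after the return Sdha read 0.04 and Atp5b 0.01 against S/L, and for the passage difference Sdha read 0.07, none of them called. A further 60 were lost without scaling, 3 with the line as replicate block, 1 with median-ratio scaling, 13 with only the groups compared, 1 with a pseudocount of 0.1 and 1 with a mean of at least 5 CPM. Of 792 values with a library left out, 174 were lost.

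Member counts (higher and lower) without scaling were 4 and 6 in 2i/L at passage 10, 5 and 4 in a2i/L, 1 and 12 in PKCi/L, 4 and 12 in S/L+PD, 32 and 1 in 2i/L at passage 20, 15 and 1 after the return against S/L, 2 and 21 against 2i/L, 2 and 6 for a2i/L against 2i/L, and 21 and 0 for the passage difference. Shares of all genes without scaling, in this order, were 22.7% and 17.5%, 10.7% and 17.3%, 5.8% and 23.5%, and 16.4% and 19.3%. They were then 50% and 12.3%, 32.7% and 6.63%, 15.8% and 30.3%, 11.8% and 23.9%, and 29.9% and 7.1%. With only the groups compared the member counts were 13 and 5 in a2i/L and 5 and 5 in PKCi/L. With the replicate block they were 6 and 20, 16 and 7, 13 and 10, 12 and 15, 18 and 36, 8 and 29, 12 and 20, 29 and 6, and 10 and 9, in the same order, all within 1.5 times. The block changed the call of Cox7a1 between a2i/L and 2i/L and of 3 named values: Sdhb in a2i/L (-0.25), Atp5b in PKCi/L (0.27) and Ndufa3 in S/L+PD (0.25).

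With 1 library left out, higher and lower counts ranged over 3 to 7 and 7 to 18 in 2i/L at passage 10, 6 to 21 and 3 to 7 in a2i/L, 2 to 16 and 5 to 9 in PKCi/L, and 3 to 12 and 6 to 14 in S/L+PD. They ranged over 15 to 21 and 25 to 34 in 2i/L at passage 20, 7 to 8 and 14 to 26 after the return against S/L, 6 to 13 and 17 to 20 against 2i/L, 9 to 25 and 2 to 3 for a2i/L against 2i/L, and 3 to 11 and 3 to 10 for the passage difference. Where this leaves 1 library in a group, that library is assumed to vary like the others. The cause of these changes was not tested. Only 2 or 3 libraries a group and values rounded to 2 decimals limit what can be called, most of all for low genes such as Cox4i2.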

Other observations

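Among the 5 groups of passages 7 and 10, a2i/L held the highest group mean for 22 of the 79 members (27.8%, against 16.8% of all genes), PKCi/L for 21 (26.6%, against 22.9%) and 2i/L for 6 (7.59%, against 22.3%). The lowest mean stood in 2i/L for 23 members (29.1%, against 21.7% of all genes) and in a2i/L for 7 (8.86%, against 17.8%). Among the late groups S/L held the highest mean for 43 members (54.4%, against 36.2%) and the return for 11 (13.9%, against 25.8%). These are descriptions of scaled CPM with no test. The late order depends on the scaling. Without it, 32 members were called higher and 1 lower in 2i/L than in S/L at passage 20, against 50% and 12.3% of all genes. For the return against S/L these counts were 15 and 1, against 32.7% and 6.63% of all genes.

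Cytochrome c (Cycs), the carrier between complexes III and IV, is not a member by name. It was called higher in 2i/L at passage 20 by 0.87 and after the return by 0.76, each against S/L. Among the 8 subunits and carriers outside the name rule, the splits were 2 higher and 3 lower, then 1 and 1. Uqcrh was higher by 0.70 and 0.64 in these comparisons. In 2i/L at passage 10 Uqcrh rose by 0.54, while Cycs was not called.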
